A study of Canis lupus familiaris and Eptesicus fuscus and Equus caballus with 6 samples.

Results

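The small RNA library of adult dog testis was described from every row of its deposited table, in which each row is a sequence and its read count, with identical sequences summed. It held 2937574 distinct sequences, out of 7545354 when the distinct sequences of the 3 small RNA libraries of the series are added. The series has 6 samples, a small RNA and an mRNA library from the testes of dog, horse and the bat Eptesicus fuscus, and it asks how piRNAs target transposable elements in these lineages. The dog sample (Canis lupus familiaris, adult, no treatment named) came from snap-frozen testis extracted with TRIzol, and its small RNA was read from a single end over 50 nt. It is 1 library, so no value has a replicate check. Intervals are exact (Clopper-Pearson) 95% binomial intervals, and they cover counting error only, because PCR copies without molecular identifiers are not independent molecules.

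piRNAs are small RNAs of the animal germ line that guide PIWI proteins, and they silence transposable elements. Their 5-prime end most often begins with U, and their 3-prime end is trimmed, so that copies of the same piRNA differ in length. In the ping-pong cycle a PIWI protein cuts its target 10 nt from the guide's 5-prime end, and the cut makes the start of a partner on the other strand. Both partners then overlap by 10 nt, and a guide that begins with U pairs with a partner that has A at position 10. In adult mammalian testis most piRNAs of the meiotic stages come from long unique transcripts and carry little of this pairing.

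The 10 most read 5-prime ends are printed first as examples of the ends whose abundance, length variants and first bases are described below. A 5-prime end is here a set of sequences that share their first 24 nt, and the sequence printed is its most read member, 5-prime to 3-prime, with T for U. Capitals mark positions 1 and 10.
end 1: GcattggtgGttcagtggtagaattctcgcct
end 2: TtaatgaccTtcatggacgcctctgaccc
end 3: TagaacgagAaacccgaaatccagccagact
end 4: GgtgcccgtCatggcctaacataacctgaa
end 5: TtgtaagctCttgagcaccggaacagcct
end 6: CtagattgtAagctcttgagcaccggaa
end 7: AttcaaccaAtgctctttgaatgccgacc
end 8: TtggactttTaatctgttggcaatgggga
end 9: TtggatgacTgaccattgaatgctttggca
end 10: TacagatgaGaaaactgaggcccagaga
Of these, ends 2, 3, 5, 8, 9 and 10 begin with U, and ends 3, 6 and 7 have A at position 10. End 1 is recognisable from general knowledge as the 5-prime fragment of a glycine tRNA rather than a piRNA, though no reference match was made. Ends 5 and 6 overlap on the same strand, with starts 5 nt apart.

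The strand of a row is not stated in the table, and 0 sequences appeared beside their own reverse complement. Each row was therefore read in the direction in which its length variants share a 5-prime end: sequences were linked to the most read sequence with the same first or last 24 nt, and 80% of the reads of the leader's variants (10 reads or more) had to share either the first 24 nt, which kept the direction, or the last 24 nt, which reversed it. This gave a direction to 57.6% of the 26 to 32 nt reads and to 408627 sequences (15.2%), in 43146 linked groups, and 46.3% of the oriented reads had to be reversed. The oriented sequences had 153725 different 5-prime ends. Each sequence took the direction of its group's leader. Ends with few reads thus entered mostly as other starts linked to a more read sequence, since the leader's own end needed variants. Ends with at least 100 reads (16109) held 92.3% of the oriented reads, and ends with at least 1000 reads (2492) held 75.6%. The variability of 3-prime ends was what the direction was read from, so it is described without being a finding. The rule can err: a sequence of miR-30a-5p, tGTAAACAtcctcgactggaagct with its seed (bases 2 to 8) in capitals, stood in the table as its reverse complement with 10405 reads, and its variants left it there.

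The table listed lengths from 24 to 32 nt, and reads gathered at 2 of them. Reads of 30 nt made up 30.9% (12789890 reads) and those of 29 nt 29.1% (12042430 reads) of the 41328689 reads. Distinct sequences were spread more evenly, with 20.8% at 29 nt, 19.3% at 30 nt and 14.7% at 28 nt. A sequence of 30 nt had on average 22.6 reads and a sequence of 25 nt 3.04. The short lengths were thus made of many rarely read sequences: 79.1% of the 24 nt sequences had 1 read, against 53.0% at 31 nt. The class of 26 to 32 nt, taken as the piRNA size class, held 98.1% of the reads. Lengths outside the listed range were not analysed here.

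A few lengths were led by RNAs of other kinds. At 32 nt, the glycine tRNA fragment of end 1 had 1317469 reads, 47.5% of the reads of that length. The leading 24 nt sequence, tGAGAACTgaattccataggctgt (seed in capitals), is miR-146b-5p with 47289 reads, 16.7% of the reads of that length. Another 24 nt sequence, tACCCTGTagaaccgaatttgtgt, is miR-10b-5p with 20187 reads. The 5-prime fragment of Y4 RNA, a small cytoplasmic RNA, gave an end of 147338 reads led by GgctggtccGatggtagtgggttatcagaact. A valine tRNA fragment, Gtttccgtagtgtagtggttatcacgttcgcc, had 125089 reads and no call of direction. A further end of 41584 reads, led by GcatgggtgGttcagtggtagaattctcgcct, is close to end 1. These names come from general knowledge of the sequences, since no table of small RNAs was used here.

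**Figure D1:**
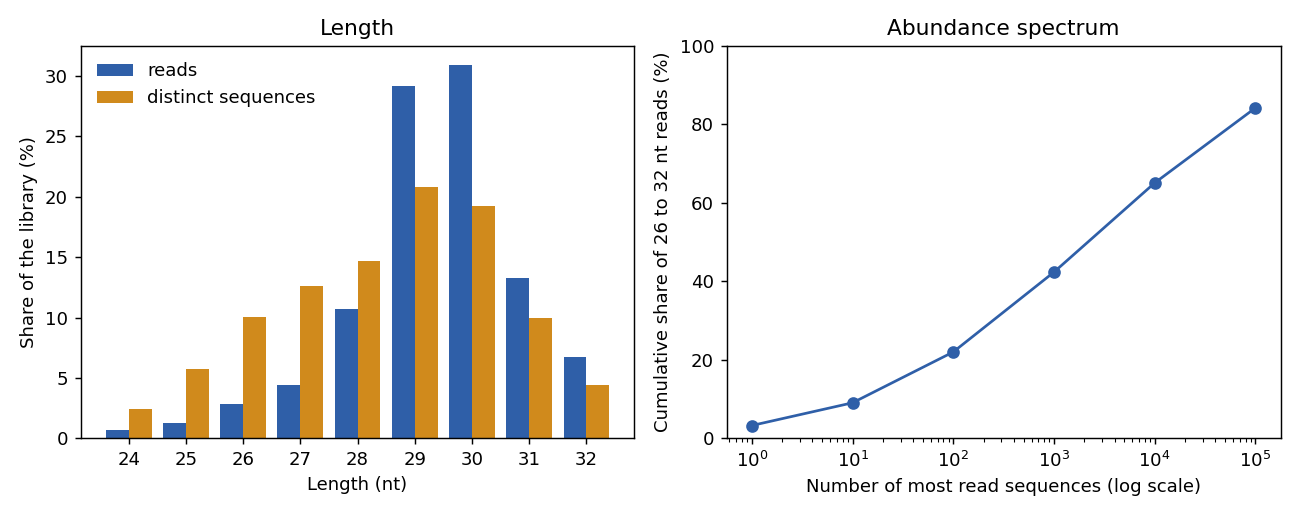
Left, share of the library (%) at each listed length in nt, for reads (blue) and distinct sequences (orange). Right, cumulative share (%) of the 26 to 32 nt reads held by the most read sequences, whose number is on a log axis. Reads peak at 29 and 30 nt (29.1 and 30.9%), and 1000 sequences hold 42.3% of the reads.

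Reads were concentrated on few sequences. Among the 2696564 sequences of 26 to 32 nt, the most read held 3.25% of the 40532177 reads, the leading 10 held 9.04%, the leading 100 held 22% and the leading 1000 held 42.3%. It took 2176 sequences to reach 50% of the reads and 273605 to reach 90%. At the top, 360 sequences with at least 10000 reads held 32.8% of the reads. At the bottom, 1618611 sequences (60.02%) had 1 read each and held 3.99% of the reads. A single read is 1 of 41328689, and an unlisted sequence may hold up to 7.26e-06% of the reads (3 reads). The right panel of the length and abundance plot shows the shares rising steadily over 5 orders of rank.

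The 10 most read sequences were led by end 1, followed by TtaatgaccTtcatggacgcctctgaccc of end 2 with 421092 reads. The next was TtggagacaGaacaggatctaacttgggcc with 383916 reads, 30 nt long, which had no call of direction and therefore enters no 5-prime end. The leading member of end 4 had 294260 reads, that of end 5 271435 and that of end 7 234467. A sequence without a direction, TagaatctgAaagatgagtaagaattgcct, had 224266 reads. End 3 supplied 2 of the 10, with 196800 reads at 31 nt and 163399 at 30 nt, and end 9 closed the list with 157205 reads. As 5-prime ends, the leading 10 held 18.1% and the leading 100 held 39.7% of the oriented reads.

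The length variants of end 2 show how the same start was read at every length from 26 to 32 nt. Capitals mark the bases past position 26.
26 nt: ttaatgaccttcatggacgcctctga
27 nt: ttaatgaccttcatggacgcctctgaC
28 nt: ttaatgaccttcatggacgcctctgaCC
29 nt: ttaatgaccttcatggacgcctctgaCCC
30 nt: ttaatgaccttcatggacgcctctgaCCCG
31 nt: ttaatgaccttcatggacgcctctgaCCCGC
32 nt: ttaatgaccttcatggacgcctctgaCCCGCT
They had 31, 75, 46596, 421092, 55132, 156107 and 395 reads in that order. End 2 had 679428 reads and 2 peaks, at 29 nt (62.0% of its reads) and at 31 nt (23.0%), with 8.11% between them at 30 nt.

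The other leading ends differed in how sharply they were cut. End 7 had 98.8% of its 237388 reads at 29 nt, end 5 had 91.9% of 295318 at 29 nt, and end 9 had 90.7% of 173297 at 30 nt. End 3 was split between 31 nt (52.4% of 375256 reads) and 30 nt (43.5%), and end 6 between 28 nt (49.9% of 245862 reads), 29 nt (28.3%) and 27 nt (15.2%). End 6 starts 5 nt before end 5, and its leading variant also ended upstream of that of end 5. End 10 was at 28 nt for 70.2% of its 171795 reads and at 30 nt for 17.5%, and it differed from ends 2 to 9 in holding 27 different sequences, where those held 6 or 7.

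**Figure D2:**
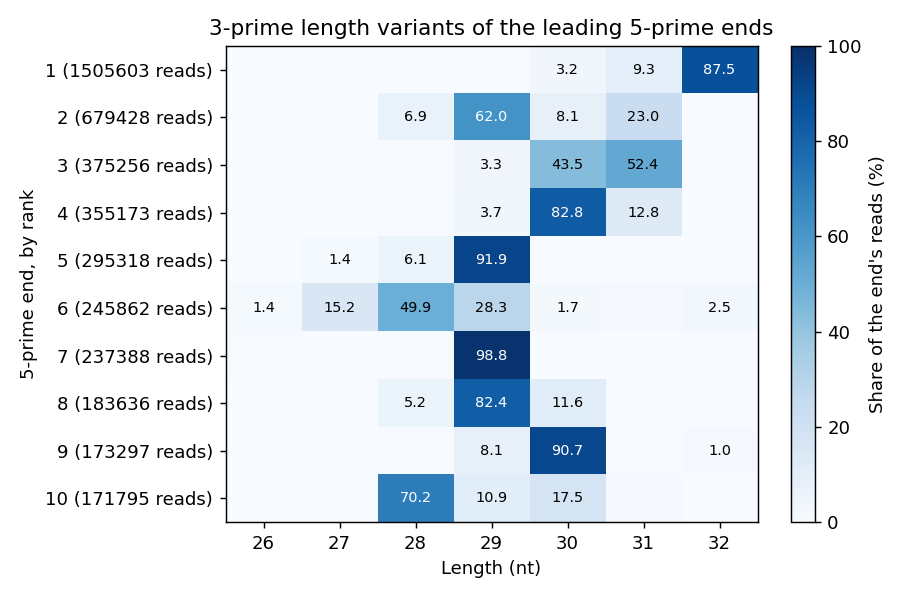
Share (%) of the reads of each of the 10 most read 5-prime ends at each length in nt, with cell values from 1% upward printed and the total reads of the end beside its rank. End 7 lies almost wholly at 29 nt (98.8%), while ends 2, 3 and 6 are spread over 2 or more lengths.

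Across the 16109 ends with at least 100 reads, the leading length held a median of 60.7% of the reads of an end, with quartiles of 48.9 and 75.7%. The median end was read at 5 of the 7 lengths, and 3384 ends (21.0%) were read at all 7. The leading length was 30 nt in 36.3% of these ends, 29 nt in 34.5%, 31 nt in 11.6% and 28 nt in 8.75%. The mean length of an end ranged from 28.2 nt at the tenth percentile to 30.5 nt at the ninetieth. The length after the leading one was 1 nt away in 71.9% of ends, more often on the shorter (39.2%) than on the longer side (32.7%), and 2 nt away in 16.8%. The ladders therefore mostly had a single peak with a neighbour beside it, and the double peak of end 2 is the less common form.

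Ends that led at different lengths also differed in how much of them lay at that length. Among the 2492 ends with at least 1000 reads, those leading at 26 nt (34 ends) had a median of 48.7% of their reads there, and those leading at 27 nt (73 ends) 48.8%. The values were 66.7% for 850 ends leading at 29 nt and 67.0% for 966 leading at 30 nt. Ends leading at 26 or 27 nt were thus spread more widely, and lengths below 26 nt were left out of the ends. U was first in 82.4% of the ends leading at 26 nt and in 51.5% of the 68 leading at 32 nt.

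The bases around the 3-prime end were uneven. In 1696 of the 2492 ends longer variants showed which base follows the leading 3-prime end: it was U in 29%, A in 27.9%, G in 22.5% and C in 20.6%. The last base of the leading sequence was A in 31.5%, C in 30.4%, U in 23.3% and G in 14.7%. The base before it was C in 33% and G in 29.2%. G was therefore common before the last base and the least frequent base at it. Variants of an end mostly read as the same sequence cut at different places: in 2325 of 2448 ends neither the last base nor the one before it mismatched the other variants. Of the remaining ends, 116 had more mismatches at the last base and 7 fewer. Among the reads compared, 0.573% of 13246379 mismatched at the last base. At the one before it, 0.0843% of 17625068 reads did.

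First-base U rose with how often an end was read. Of 40078 ends with 1 read, 24.5% began with U (24.04 to 24.9%), and of 52891 ends with 2 to 9 reads, 28.6% (28.2 to 28.96%). The share was 55.8% (55.3 to 56.2%) of 44647 ends with 10 to 99 reads and 67.4% (66.7 to 68.2%) of 13617 ends with at least 100 and under 1000 reads. It reached 69.6% (67.7 to 71.5%) at 1000 to under 10000 reads and 73.5% (67.7 to 78.7%) of the 264 ends with at least 10000 reads. Below 10 reads the share was near that of U at the other positions, which averaged 26.3% over all ends. Such ends are mostly starts that entered through the linking rule, and how far this sets their share of U was not tested. The last 3 classes have overlapping intervals. Intervals over ends, here and below, treat ends of the same linked group as independent, which they may not be.

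Over all oriented reads 64.9% began with U, and the glycine tRNA fragment alone lowered this value. Without end 1 it was 69.4%. The effect was concentrated at 32 nt, where 16.1% of the oriented reads began with U and 41.6% did so without end 1. At 26 to 31 nt the share lay between 67.9% (30 nt) and 74.4% (26 nt). Reads without a direction were also bounded by these bases: 51.1% of the 17176981 such reads had T first, 47.9% had A last and 84.3% had either, against 36.6% with A first or T last.

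Ends that do not begin with U included very abundant ones. After end 1 came end 4 (G), end 6 (C) and end 7 (A), with 355173, 245862 and 237388 reads. GcccaaactAtagttggaaagccattctta (96491 reads) and CcagtgtgaAttctctgacgttgaatgagc (78626 reads) were further such ends, and both have A at position 10. Over reads, A stood at position 10 in 55.1% of those beginning with C, 44.6% with A, 34.1% with U and 20.4% with G, the last being 31.7% without end 1. By distinct sequences these shares came closer together, at 35.8% (C), 37.2% (A), 33.8% (U) and 32.9% (G).

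A at position 10 was a modest excess and not the highest A along the sequence. Among ends with at least 1000 reads, A made up 34.6% of bases at position 10, against a mean of 29.1% over positions 5 to 9 and 11 to 15. Within those neighbours the range ran from 25.4 to 38.8%, with the highest value at position 5. A at position 2 was 32.7%, where U was at its lowest (15.5%). Across classes of reads per end, A at position 10 was 28.7% (28.2 to 29.1%) of ends with 1 read, 34.1% (33.6 to 34.5%) with 10 to 99 reads and 36.4% (30.6 to 42.5%) with at least 10000 reads. In every class it was lower in ends that begin with U than in the others. The gap was widest at 100 to under 1000 reads (32.2 and 38.2%) and narrow at 10000 reads or more (36.1 and 37.1%). By length, A at position 10 was 44.0% of reads at 27 nt and 34.6% at 29 nt, but by distinct sequences it was 33.8% and 34.1%.

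**Figure D3:**
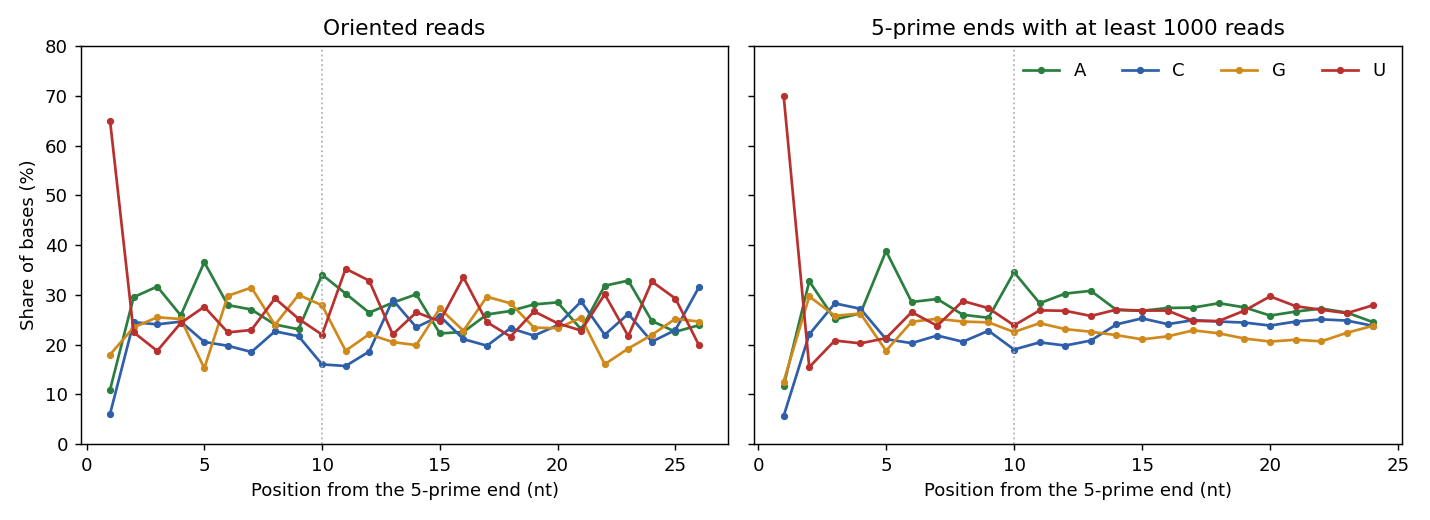
Share (%) of A (green), C (blue), G (orange) and U (red) at each position from the 5-prime end in nt, for all oriented reads (left) and for the 2492 ends with at least 1000 reads, each counted once (right). The dotted line marks position 10. U stands at 64.9 and 70.02% at position 1, and in the right panel A peaks at positions 5 (38.8%) and 10 (34.6%).

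Ping-pong pairs were looked for as 5-prime ends on opposite strands that are complementary over 10 nt. To compare, the same count was made for each overlap from 11 to 24 nt, always judged on 10 nt of complementarity. Over oriented sequences, the 10 nt overlap had 1478082 ordered pairs against a median of 506856 at the other overlaps, a ratio of 2.92, and the highest other overlap reached 1.35. That count gives more weight to starts shared by many sequences, and over all 153725 ends, each counted once, the ratio was 1.16. Rarely read ends among them entered mostly through the linking rule, and whether this lowers the ratio was not tested. The excess grew as rarely read ends were left out: 1.90 for ends with at least 10 reads, 2.67 with at least 100 and 4.65 with at least 1000. The last rests on 100 ordered pairs at 10 nt against a median of 21.5, and another overlap (23 nt) reached 1.95 there.

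**Figure D4:**
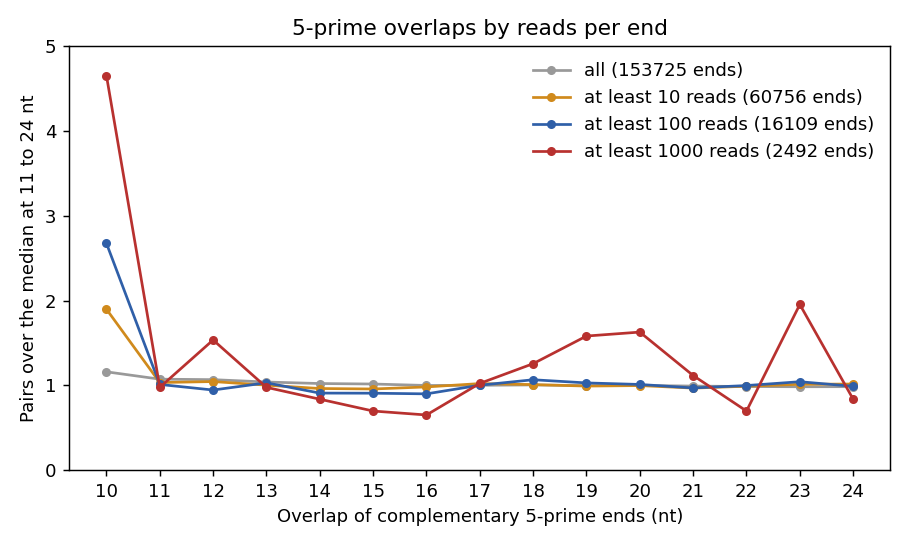
Number of complementary pairs of 5-prime ends at each overlap in nt, divided by the median at 11 to 24 nt, for all ends (grey) and for ends with at least 10 (orange), 100 (blue) and 1000 reads (red). The 10 nt overlap stands at 1.16, 1.90, 2.67 and 4.65, and the red line scatters up to 1.95 at other overlaps, where its median is 21.5 pairs.

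Starts of 10 nt can match without sharing a locus, so pairs were also asked to be bridged. A pair was called bridged when a further listed sequence held the 26 nt centred on the overlap (8 nt on each side of a 10 nt overlap), so that it joins the bases of both ends on the same stretch of RNA. Among ends with at least 10 reads, 2803 of 9485 pairs at 10 nt were bridged. At 11, 12, 13, 14, 15 and 16 nt the bridged pairs numbered 1327, 1231, 1141, 1029, 1074 and 1112. The share of pairs that were bridged went the other way: it was lowest at 10 nt (29.6%). It rose from 50.2% of 2643 pairs at 11 nt to 92.8% of 1198 at 16 nt. These pairs met a stricter match at longer overlaps, so the shares cannot be compared across overlaps. Judged on 10 nt alone, the same ends gave 10304 ordered pairs at 11 nt and 9788 at 16 nt. The bridged count at 10 nt was 2.49 times the median of the bridged counts at 11 to 16 nt. With both ends at 100 reads or more it was 381 pairs against 86 to 112, and with both at 1000 or more 19 against 1 to 4.

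The pairs are shown because they carry the 10 nt overlap letter by letter. The first 6 bridged pairs by the reads of the smaller partner were chosen after their values were seen. Capitals mark the 10 nt that are complementary to the partner.
pair 1, strand a: TCAAATGTCAcctcctctgtagaaccttcc
pair 1, strand b: TGACATTTGAactgggtgtgggtgtctgg
pair 2, strand a: TAACCAAGAAtgctttactccagttgtgac
pair 2, strand b: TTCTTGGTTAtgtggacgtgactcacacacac
pair 3, strand a: TAAATGAGAAgaacatgcaaccaagaa
pair 3, strand b: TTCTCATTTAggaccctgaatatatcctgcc
pair 4, strand a: TGTCTCGTTActgatagaacacactggca
pair 4, strand b: TAACGAGACAagcactgtgggagcacaag
pair 5, strand a: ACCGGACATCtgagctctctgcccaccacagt
pair 5, strand b: GATGTCCGGTcattagcaaagaaaaagcaa
pair 6, strand a: TTTGAACAAAttctagctgaaaactttcct
pair 6, strand b: TTTGTTCAAAtacatattctggccct
In pairs 1, 2, 3, 4 and 6 both partners begin with U and so both have A at position 10, and in pair 5 neither does. Pair 1 was nearly balanced, with 8977 and 7280 reads. Pair 4 was the most uneven of the 6, with 16753 reads on strand a and 2797 on strand b. Each end of pairs 1, 2, 4 and 5 read as 6 or 7 sequences, at most 1 per length, whereas the ends of pair 3 held 68 and 88 sequences and those of pair 6 held 40 and 37.

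Bridged pairs at 10 nt differed from those at other overlaps in their first bases. Both partners began with U in 42.3% of the 2803 pairs, against 13.6 to 20.1% at 11 to 16 nt. U was first on 1 partner in 50.6%, against 55.2 to 60.03%, and on neither in 7.06%, against 20.6 to 27.7%. The partners' reads differed by a median factor of 3.53 at 10 nt, close to the 3.27 to 3.71 at the other overlaps. In all, 3967 ends (6.53% of those with at least 10 reads) had a bridged partner at 10 nt, and they held 2627002 reads, 11.2% of the oriented reads. At the overlaps of 11 to 16 nt the same shares were 3.20 to 3.80% of ends and 2.68 to 4.78% of reads. A at position 10 stood in 60.6% of the ends with a partner at 10 nt, in 34.2 to 41.7% of those with a partner at the other overlaps and in 32.3% of ends without a partner at 10 nt. Complementarity fixes part of that value, since a partner that begins with U requires A at position 10. The median length per end was 29.3 nt with a partner and 29.2 nt without.

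**Figure D5:**
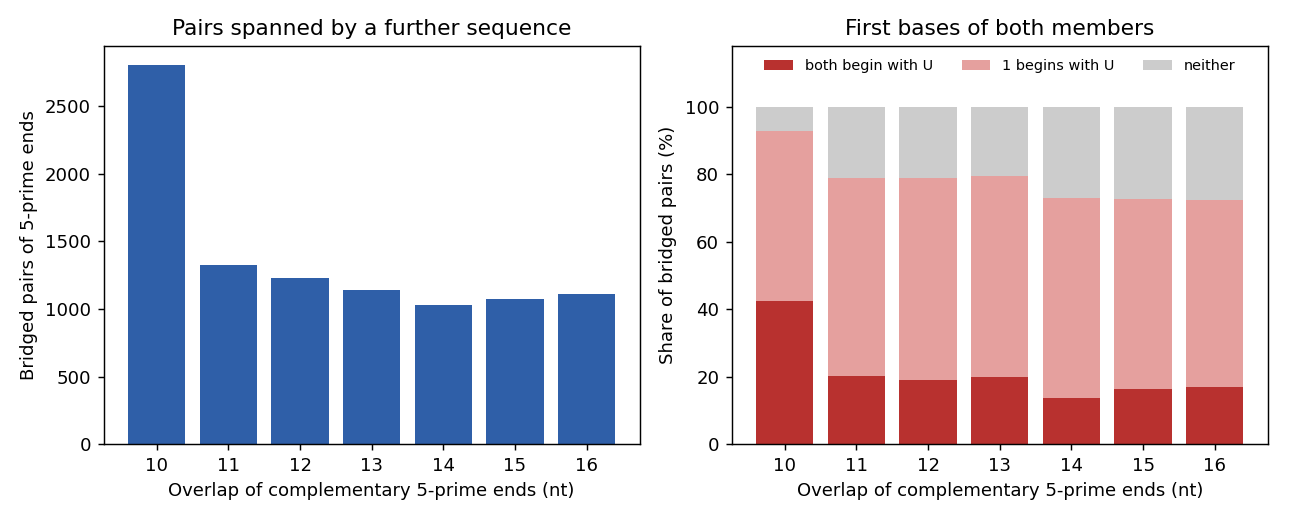
Left, number of bridged pairs of 5-prime ends (each end with at least 10 reads) at each overlap in nt. Right, share (%) of those pairs in which both, 1 or neither of the ends begins with U. At 10 nt there are 2803 pairs, 42.3% with U on both ends, and at 11 to 16 nt 1029 to 1327 pairs, 13.6 to 20.1% with U on both ends.

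The most read matches over 10 nt were mostly not bridged. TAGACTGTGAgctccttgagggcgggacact (47564 reads for its end) and TCACAGTCTAattgtgaagatgcaggagc (46315 reads) are complementary over their first 10 nt, but no listed sequence ran across both. Of the 5 pairs of ends with the most reads on the smaller partner, only TCAAATGTCAcctcctctgtagaaccttcc and TGACATTTGAactgggtgtgggtgtctgg, printed above as pair 1, were bridged. The other ends of those 5 pairs include end 10, whose start matches CTCATCTGTAaaacatataggaacaatgtt. Whether unbridged pairs come from the same locus was not tested.

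Ends read as several sequences per length stood apart from ends with at most 1 sequence per length. Of the 16109 ends with at least 100 reads, 868 (5.39%) held more than 1 sequence at some length, up to 161 sequences in all. They held 12.8% of the reads, and without end 1, the glycine tRNA fragment, which falls among them, 6.23%. This split was made after the data were seen. A at position 10 stood in 58.4% of these ends (55.05 to 61.7%) and in 32.8% of the 15241 others (32.1 to 33.6%). Since ends can share a start, each different 10 nt start was also counted once. The values were then 56.2% of 694 starts (52.4 to 59.9%) and 32.6% of 14400 (31.8 to 33.3%). First-base U was less different, at 74.8% (71.7 to 77.6%) and 67.4% (66.7 to 68.2%) of the ends.

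A bridged 10 nt partner was also more frequent in the ends with several sequences per length, at 39.1% (339 of 868, 35.8 to 42.4%) against 6.96% (1061 of 15241, 6.56 to 7.38%). Other overlaps were more frequent there too: a bridged partner at a given overlap of 11 to 16 nt was present in 8.64 to 16.2% of them and in 3.29 to 3.90% of the others. The 10 nt overlap was above the other overlaps in both classes. Among ends with at least 1000 reads the split was wider, with A at position 10 in 63.1% of 141 ends (54.6 to 71.1%) and 32.8% of 2351 (30.9 to 34.8%), and a bridged partner in 53.9% and 8.93%. Ends read as 1 sequence per length made up most of the oriented library, with 87.2% of the reads of ends with at least 100 reads and 93.8% without end 1. Their 32.8% of A at position 10 lay above the mean of their neighbouring positions (28.5%), below position 5 (37.4%) and above each of the others (25.5 to 29.5%). In the ends with several sequences per length, position 5 had 37.6% and the other neighbours 23.3 to 32.7%.

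The start TCACAGAGGA is shown as an example of an end with several sequences per length, where the variants part after position 26. Capitals mark the bases past that position.
26 nt: tcacagaggaagacatagacatggcc
27 nt, form a: tcacagaggaagacatagacatggccA
27 nt, form b: tcacagaggaagacatagacatggccT
28 nt, form a: tcacagaggaagacatagacatggccAA
28 nt, form b: tcacagaggaagacatagacatggccTT
29 nt: tcacagaggaagacatagacatggccAAC
30 nt, form a: tcacagaggaagacatagacatggccAACA
30 nt, form b: tcacagaggaagacatagacatggccAACT
These had 10619, 4096, 1799, 2685, 891, 3263, 2184 and 1926 reads in that order. The start as a whole occurred in 345 sequences of 25 ends with 35385 reads, 159 of the sequences listed forward and 186 reversed. Its complement TCCTCTGTGA, led by TCCTCTGTGAgatttctgttcatgtcttt, occurred in 114 sequences of 7 ends with 1432 reads. This pair of starts held 5.32% of all sequence pairs at 10 nt.

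The next pairs of starts also held many sequences on both strands, and how related these are beyond the first 10 nt was not tested. TGCAGAAGAA and TTCTTCTGCA held 4.56% of the sequence pairs, with 19044 reads in 30 ends on one strand and 1375 in 7 ends on the other. TAAATGAGAA and TTCTCATTTA, the starts of bridged pair 3, held 3.25%, with 9718 and 4592 reads. TACAATGGAA and TTCCATTGTA held 2.19%, and TATCCATTCA and TGAATGGATA held 2.18%. The first 50 pairs of starts held 55.03% of all sequence pairs in 814 ends. The ratio of 2.92 over sequences therefore rests mostly on few starts of 10 nt. Reads of these starts were shorter (mean 28.8 nt) than the other oriented reads (29.6 nt). The gap narrowed to 28.9 against 29.5 nt without the most read end of each side, end 10 and end 1. By distinct sequences these starts were longer (29.2 against 28.9 nt).

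Some starts on the same strand lay close together in the oriented set. Among the 16109 ends with at least 100 reads, 9.64% had another such end 1 nt downstream, 6.88% 2 nt and 5.97% 3 nt downstream, falling to 2.17% at 9 nt and 2.28% at 10 nt. Among ends with at least 1000 reads the values were 4.01% at 1 nt and 0.682% at 10 nt. The shares were highest at 1 nt in both classes. The linking rule let an end enter when it shared its last bases with a more read sequence. Such an end has a start close by on the same strand. The rule thus favours nearby starts, and how far it sets these shares and their fall with distance was not tested.

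Some words of 8 nt were shared by many ends. No 8 nt word occurred in at least 1000 of the 153725 ends, and 5105 occurred in at least 100. The most enriched was CTGAGCCA, in 776 ends (0.505%), 23.1 times the number that the base composition gives, where the median word had 0.706 times. The next 5 words, GAGCCACC, TGAGCCAC, GCTGAGCC, ACTGAGCC and AGCCACCC, overlap it, at 12.7 to 18.3 times. The other 4 of the leading 10 were AGGCAGAG, AGAACTCA, GGACCCTG and CAGCCTTG, at 9.76 to 10.5 times. The complement of the leading word, TGGCTCAG, was in 141 ends, 4.37 times the composition value. The word was thus read mostly on one strand.

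The most read ends that hold CTGAGCCA are shown with the word in capitals, followed by the most read end with its complement.
member 1: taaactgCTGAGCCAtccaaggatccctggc
member 2: caggcgctaaaccgCTGAGCCAcccaggg
member 3: tcctgtgtgtccCTGAGCCAacttttctgc
member 4: taaaccgCTGAGCCAcccgggctgccctcc
member 5: tCTGAGCCAcccaggcacccaattcttac
complement: tctcaatgccTGGCTCAGtgctaaacaca
Their ends had 2260, 1731, 1619, 1449, 1156 and 1437 reads. Members 1, 2, 4 and 5 carry similar bases around the word, while member 3 and the complement do not. Canids carry an abundant tRNA-derived short interspersed element, SINEC, whose first bases read much like the reverse complement of member 2, from general knowledge. No element sequence was used here and placement on elements was not analysed here.

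Ends that hold the word CTGAGCCA, whatever the bases around it, were many and rarely read. They had a median of 3 reads, against 4 over all ends, and 33196 reads together. U was first in 34.9% of them, below the 39.5% of all ends. A stood at position 10 in 43.3%, against 31.4% of all ends. The word itself fixes that base wherever it spans position 10, so this difference is no separate trait of these ends. The word began most often at position 15 (14.8% of its ends) and next at position 8 (10.1%), and at no fixed place. An end with the word or its complement took part in 83 of the 2803 bridged pairs. Over all 153725 ends the word was in 776 and its complement in 141. Bridged pairs were taken from ends with at least 10 reads, for which that share is not given here. The 83 pairs can therefore be called neither few nor many. Tandem repeats of units up to 6 nt were rare, in 347 sequences with 557 reads, the most read of which had 13 reads.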

How the data were processed

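The authors deposited, per the labels, a table of distinct sequences with a raw read count each. The submitters' processing notes name Bowtie, RSEM and CanFam3.1 without role. How reads were trimmed and selected by length is not given in the sources used here. Identical sequences were summed (23684 repeated rows). The total of 41328689 reads is that of the listed 24 to 32 nt and not the full depth. Direction, ends, overlaps, bridging and words were computed with Python 3.11.15, numpy 2.4.6, pandas 2.3.3 and scipy 1.17.1. Direction, first-base U and the overlap ratio were tested on simulated data, and bridging and words were not. The simulated loci were random sequences with a single start each, without shifted starts or repeats. Words were counted once per 5-prime end.

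The sequences named were the 10 most read, the leader of each length and of the 10 leading ends, both members of the 5 leading pairs of starts and of ends, and 10 words. Others were chosen after their values were seen. A minimum of 1000 ends left no word, so 100 was used. Bridging and read minimums were added after the data were seen. Members and lists were chosen with earlier results of these data known. Matches to known small RNAs and to a genome were planned, but no reference sequence was used here. No test across samples was made, since dog had 1 small RNA library.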

Additional observations from a re-analysis of the deposited data

How the results depend on the processing

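No paired analysis was possible because each group held 1 library. Results that moved by less than their margin (the 22 nt key, the 24 and 22 nt bridging windows, the leading-length share at 1000 reads, and the overlap ratio without self-complementary starts or tandem repeats, for sequences with at least 10 reads or ends with at least 100) are not repeated. For the others the cause was not tested, apart from what each setting itself counts.

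The share of 29 and 30 nt was 60.1% of reads, 40.03% of distinct sequences and 61.2% without sequences of 1 read. The leading 1000 sequences held 42.3%, 41.7% over all lengths, 43.9% at 28 to 31 nt and 52.1% with length variants summed. The oriented share was 57.6%, 70.7% at a threshold of 70%, 29.4% at 95% and 53.9% with at least 50 variant reads. First-base U was 64.9% of oriented reads, and under these 3 settings 63.5%, 67.6% and 64.9%. It was 51.0% as listed, 52.1% of distinct sequences, 39.5% of ends and 69.4% without the 10 leading groups. A at position 10 was 34.6% of oriented sequences, 34.0% at 70%, 35.4% at 95%, 34.1% of reads, 31.4% of ends and 30.4% as listed.

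The 10 nt overlap ratio was 2.92, 2.23 at 70%, 6.43 at 95%, 1.16 per end, 1.13 as listed and 11.5 with complementarity over the whole overlap. That last setting asked for a stricter match at longer overlaps, where counts fell from 421290 at 11 nt to 103144 at 24 nt. Its ratio is raised by that rule and cannot be compared with the others. Alternatives chosen after seeing the data gave 1.90 and 4.65 for ends with at least 10 and 1000 reads. The bridged ratio of 2.49 became 3.77 and 6.33 with both ends at 100 and 1000 reads or more. The ratio of the leading word was 23.1, 7.25 by reads and 271 for the leading 10 nt word. Depth limits the ends with few reads, whose direction was taken from the leader of their linked group.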
